A study of Mus musculus with 6 samples.

Results

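A set of 38 genes of lysosomal hydrolases, lysosomal membrane proteins and the vacuolar proton pump (V-ATPase), given as a list of symbols, was followed in cDC1s, the type 1 conventional subset of dendritic cells, which is known for showing antigen it has taken up to CD8 T cells. All 38 were found among the 32285 features of the count table, and all 38 passed the filter on low counts, as did 12568 features in all. The set held 15 hydrolases, 3 lumenal proteins that are not enzymes, 6 membrane proteins, 2 transcription factors and 12 V-ATPase genes. The lysosome is the acidic compartment in which a cell breaks down what it has taken up, and in dendritic cells it sets how fast captured antigen is digested. Soluble hydrolases cut proteins, glycans and lipids in its lumen, heavily glycosylated membrane proteins line it and pass lipids and ions across it, and the V-ATPase acidifies it. The transcription factors TFEB and TFE3 are known to switch on many of these genes together.

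The cells were sorted from the mLN (the label's own abbreviation) of C57BL/6 mice. HDM (house dust mite) was given intranasally to both groups, 50 µg per mouse, and the sort followed 24 h later. The groups were 3 libraries from Vps33BdeltaDC mice, which carry a conditional deletion of Vps33b in dendritic cells (KO), and 3 libraries from wild-type mice (WT). VPS33B is a Sec1/Munc18-family protein of endosomal and lysosomal membrane trafficking. The labels name neither the promoter behind the deletion nor the age of the mice. They also do not say whether each library came from its own animal, so that the p-values measure no more than how far these samples scatter, which may be technical.

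The libraries held 11755944 to 17434247 counts in KO and 14949229 to 18450678 in WT. Vps33b had 4.997, 7.01 and 8.29 CPM (counts relative to library size, with TMM factors) in the KO libraries, against 16.2, 19.1 and 13.8 CPM in the WT libraries. The groups did not overlap, and an exact two-sided permutation test gave p = 0.1, the smallest value that 3 against 3 libraries allow. By the edgeR quasi-likelihood test the log2 fold change of Vps33b was -1.28 ± 0.27 (SE), with an unadjusted p of 0.000567 and an adjusted p of 0.834. The deleted gene itself thus did not pass at an adjusted p under 0.05. All 12 cDC1 markers were detected, but they did not move as one. Their sum was 7883 to 8671 CPM in KO libraries and 7499 to 8493 CPM in WT libraries, and Ccr7, a chemokine receptor of migrating dendritic cells, made up most of it. Without Ccr7 the sum was 2752 to 3317 CPM in KO libraries and 3012 to 3221 CPM in WT libraries. Log2 fold changes were below 0 for 9 of the 12 markers, with a median of -0.29. At an unadjusted p under 0.05, 4 of the 12 were lower in KO and 0 higher, against 3.06% and 2.71% of all genes tested. The edgeR adjusted p was 0.834 or above for all 12. The 4 were Wdfy4, needed for cross-presentation (-0.89 ± 0.25), the integrin gene Itgax (-0.56 ± 0.16), the chemokine receptor gene Xcr1 (-1.43 ± 0.59) and the dead-cell receptor gene Clec9a (-0.38 ± 0.17), of which Clec9a alone overlapped between the groups. Of the 12 markers, 3 were thus lower in KO without overlap, against 5.19% of all genes tested. All 16 markers of monocytes and macrophages, cells rich in lysosomes, were detected as well. They summed to 209, 193 and 746 CPM in KO replicates 1, 2 and 3 and to 428, 221 and 239 CPM in WT replicates 1, 2 and 3, so that KO replicate 3 and WT replicate 1 stood above the others. B cell markers summed to 135 to 409 CPM in KO and 178 to 324 CPM in WT, and erythroid and stromal markers to 24.6 to 186 CPM in KO and 12.9 to 111 CPM in WT. In bulk RNA, more cells of a type and more RNA per cell cannot be told apart.

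TFEB and TFE3 are known to bind a short palindromic element, the CLEAR element, around the core CACGTG. The promoter windows of RefSeq (build GRCm38.p6, 250 bases before to 50 after a transcription start) matched 33 of the 38 genes by symbol, and Asah1, Atp6v1b2, Atp6v1c1, Atp6v1h and Npc1 were not matched. The core CACGTG lay in the windows of 10 of these 33 genes (30.3%), against 8.09% of the 27025 genes with a window. The longer word GTCACGTG, searched on both strands, was held by 8 of 33 (24.2%), against 2.55% of all genes, and TCACGTGA by 5 of 33 (15.2%), against 1.12%. Both longer words contain the core, and they overlap each other in several windows. The words were chosen because factors known to switch on many lysosomal genes bind them. A larger share in a lysosomal list is therefore not an independent result. The share over all genes with a window was neither limited to the genes tested here nor matched for base composition. The core was found in a larger share of these windows than of all genes, although 23 of the 33 lacked it. A stretch of 36 bases is shown for each of the 10 genes, read 5′ to 3′ on the strand of the gene. The core that each stretch is centred on, with any longer word around it, is in capitals. The Lamp1 stretch holds a further core in small letters.
Ctsa, chr2:164833746-164833781, plus strand: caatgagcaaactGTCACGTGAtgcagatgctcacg
Gaa, chr11:119267808-119267843, plus strand: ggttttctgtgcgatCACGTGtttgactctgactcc
Gla, chrX:134601179-134601214, minus strand: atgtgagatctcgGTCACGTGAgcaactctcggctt
Glb1, chr9:114401015-114401050, plus strand: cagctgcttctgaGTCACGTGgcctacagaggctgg
Naglu, chr11:101070006-101070041, plus strand: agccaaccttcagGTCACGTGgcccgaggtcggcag
Lamp1, chr8:13159118-13159153, plus strand: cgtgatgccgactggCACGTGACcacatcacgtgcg
Mcoln1, chr8:3500459-3500494, plus strand: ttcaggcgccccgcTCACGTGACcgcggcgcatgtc
Atp6v0b, chr4:117887345-117887380, minus strand: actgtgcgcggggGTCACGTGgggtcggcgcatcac
Atp6v0d1, chr8:105566047-105566082, minus strand: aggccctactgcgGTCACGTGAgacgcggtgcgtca
Atp6v1a, chr16:44139370-44139405, minus strand: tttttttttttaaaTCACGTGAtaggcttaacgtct

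The core began between 227 and 3 bases before the start in these windows, except for a second one in Ctsa, which began at base 6 of the transcript. Lamp1 held 4 cores, at 61, 45, 28 and 15 bases before its start. The 10 genes with a core were spread over 5 of 14 hydrolases, 2 of 5 membrane proteins and 3 of 9 V-ATPase genes with a window. Ppt1, Lamp2, Cd68, Atp6ap1 and Atp6ap2, whose values are given below, held no core in their windows. Across the 10 genes with a core the median log2 fold change of KO over WT was -0.06, and across the 23 without it was 0.12. A match of letters says nothing of whether a factor was bound.

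KO and WT were compared to ask how loss of Vps33b bears on these transcripts. None of the 38 genes passed the edgeR quasi-likelihood test at an adjusted p under 0.05, where 0% of all 12568 genes passed. At an unadjusted p under 0.05, 2 of the 38 genes were higher in KO, Lamp2 and Atp6v1h (5.26%, against 2.71% of all genes), and 1 was lower, Ppt1 (2.63%, against 3.06% of all genes). For 6 genes every KO library lay above every WT library, or 15.8% of the set, against 5.46% of all genes. These were Neu1, Lamp1, Lamp2, Atp6v1h, Atp6ap1 and Atp6ap2. Ppt1 and Man2b1 were lower in KO without overlap, or 5.26% of the set, against 5.19% of all genes. Over the 38 genes the median log2 fold change was 0.08, with 24 above 0, against 0.00 over all genes, where 50.6% lay above 0. Without WT replicate 2 the median of the set was 0.15, and without KO replicate 3 it was 0.04. Differences were small, and 29 of the 38 genes (76.3%) had a log2 fold change of less than 0.25 in size, against 61.0% of all genes and 71.1% of the 9391 genes with a mean of at least 5 CPM. The median SE was 0.15 in the set, 0.23 over all genes and 0.19 over those of at least 5 CPM.

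**Figure D1:**
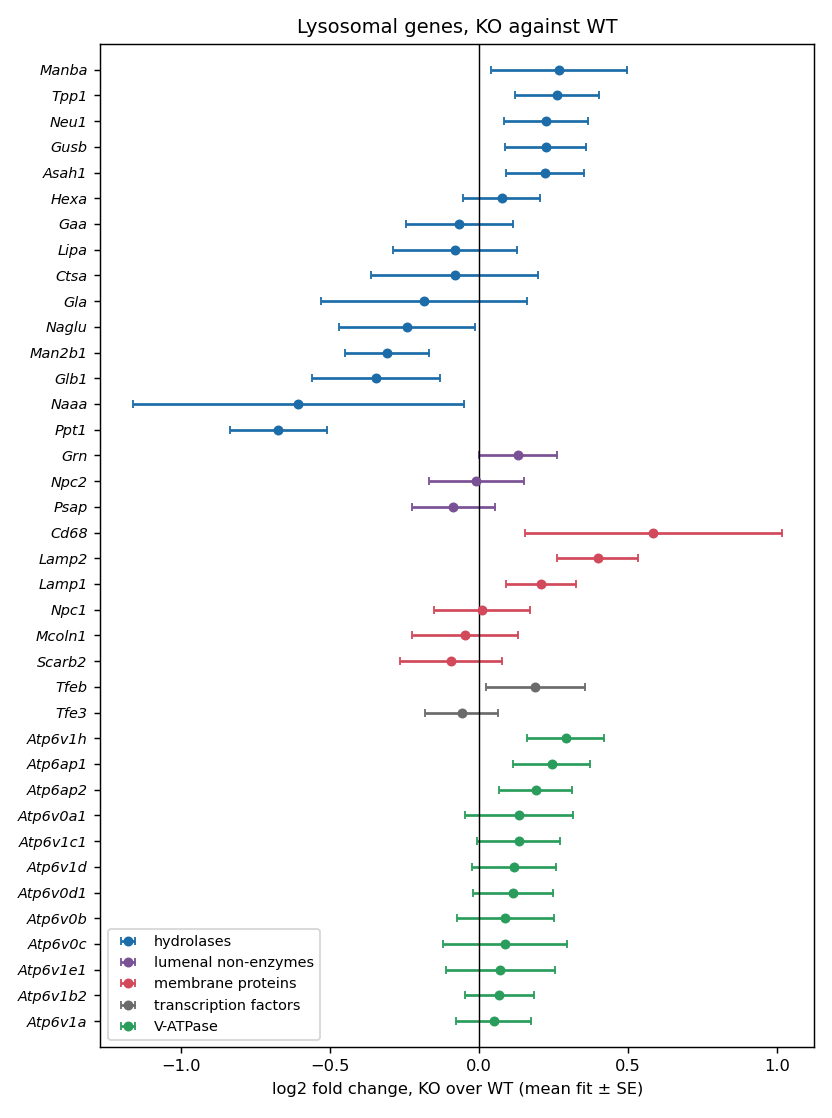
Log2 fold change of KO over WT for the 38 lysosomal genes, by role (points, edgeR estimate; bars, SE; n = 3 libraries per group). All 12 V-ATPase genes lie to the right of 0, the hydrolases lie on both sides, and Ppt1 is the lowest at -0.67.

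The hydrolases showed no common direction, with 9 of 15 below 0 and a median log2 fold change of -0.08. Their summed level was 1358, 1405 and 1464 CPM in KO libraries, against 1411, 1454 and 1339 CPM in WT libraries, and the groups overlapped. The median was 0.03 both without KO replicate 2 and without WT replicate 1. Log2 fold changes ran from -0.67 for Ppt1 to 0.27 for Manba, and the spread within the class was wider than in the V-ATPase, where they ran from 0.05 to 0.29. The hydrolases were also measured less precisely, with a median SE of 0.18 against 0.14 and a lowest mean level of 16.1 against 65.0 CPM. The part of this precision in the wider spread was not tested.

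Ppt1 (ENSMUSG00000028657, chromosome 4, 122836242 to 122859175 in mm10) encodes a thioesterase that removes fatty acyl groups from proteins and is known to be enriched in cDC1s. It had 82.3, 85.7 and 97.7 CPM in the KO libraries, against 139.9, 170.7 and 113 CPM in the WT libraries. All 3 KO libraries lay below all 3 WT libraries, and the WT libraries were the more scattered. The means were 88.6 ± 8.10 CPM in KO and 141 ± 28.8 CPM in WT (SD, n = 3 each), so that KO held 62.7% of the WT level. On the log2 scale the fold change was -0.67 ± 0.16 (SE). This had an unadjusted p of 0.00156 and an adjusted p of 0.834 by the edgeR quasi-likelihood test. It ranged from -0.81 to -0.52 over the alternatives, with adjusted p-values of 0.118 (DESeq2) to 1.00. The cDC1 markers Wdfy4, Itgax, Xcr1 and Clec9a had negative log2 fold changes as well (-0.89, -0.56, -1.43 and -0.38), as had Cd8a (-1.04 ± 0.58). WT replicate 2 was highest in these 5 markers, in Batf3 and Cadm1, and in Ppt1. Irf8, Itgae, Flt3, Zbtb46 and Ccr7 were highest in other libraries, and Zbtb46 was lowest in WT replicate 2, at 244 CPM. Log2 fold changes were also negative for Itgae, Cadm1, Flt3 and Zbtb46 (-0.47, -0.20, -0.11 and -0.08). They were positive for Irf8, Batf3 and Ccr7 (0.12, 0.09 and 0.18). The part of the cDC1 markers in the level of Ppt1 was not tested. The exons of Ppt1 overlap Cap1, on the other strand, over 3.51% of their length.

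Man2b1 (ENSMUSG00000005142, chromosome 8, 85083270 to 85098282), the lysosomal alpha-mannosidase that trims N-linked glycans, had 76.1, 85.0 and 87.1 CPM in KO libraries, against 116.9, 99.8 and 90.6 CPM in WT libraries. The groups did not overlap, though KO replicate 3 and WT replicate 3 lay close together. Its log2 fold change was -0.31 ± 0.14 with an edgeR adjusted p of 0.834. Naaa, an amidase of lipid mediators that is also known as a cDC1-enriched gene, had 9.20, 21.5 and 29.4 CPM in KO libraries, against 46.6, 30.6 and 13.2 CPM in WT libraries. It was the most scattered hydrolase, with a log2 fold change of -0.60 ± 0.56 that was -0.12 without WT replicate 1 and -0.98 without WT replicate 3. The part of the lower cDC1 markers in its level was not tested either. Glb1, the beta-galactosidase, had a log2 fold change of -0.35 ± 0.21, and Naglu, which degrades heparan sulfate, of -0.24 ± 0.23.

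Of the 6 hydrolases with positive log2 fold changes, 5 lay between 0.22 and 0.27. Gusb, the beta-glucuronidase and the hydrolase with the highest level per exon length, had 326.7, 395 and 380.4 CPM in KO libraries, against 275, 351 and 318 CPM in WT libraries. The groups overlapped, since WT replicate 2 lay above KO replicate 1, and the log2 fold change was 0.23 ± 0.14. Neu1, the lysosomal sialidase, was at 64.2 ± 4.57 CPM in KO and 54.9 ± 4.75 CPM in WT, without overlap but with a gap of less than 1 SD. Its log2 fold change was 0.23 ± 0.14 with an edgeR adjusted p of 0.853. Tpp1, a tripeptidyl peptidase, had a log2 fold change of 0.26 ± 0.14, Asah1, the acid ceramidase, of 0.22 ± 0.13, and Manba, the beta-mannosidase, of 0.27 ± 0.23.

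The 5 other hydrolases had log2 fold changes of -0.18 to 0.08. They were Hexa, a subunit of beta-hexosaminidase (0.08 ± 0.13), Gaa, which degrades glycogen (-0.07 ± 0.18), Ctsa, the serine carboxypeptidase that protects Neu1 and Glb1 (-0.08 ± 0.28), Lipa, the acid lipase (-0.08 ± 0.21), and Gla, the alpha-galactosidase (-0.18 ± 0.35). Gla was set apart by single libraries, with 33.3 CPM in KO replicate 2 and 45.4 CPM in WT replicate 2, against 19.4 to 22.1 CPM in the other 4. Its log2 fold change without WT replicate 2 was 0.27. Ctsa had 34.4, 17.9 and 40.0 CPM in KO libraries, against 37.9, 33.3 and 24.7 CPM in WT libraries, and 17.4% of its exon bases are shared with the opposite-strand genes Neurl2 and Pltp.

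**Figure D2:**
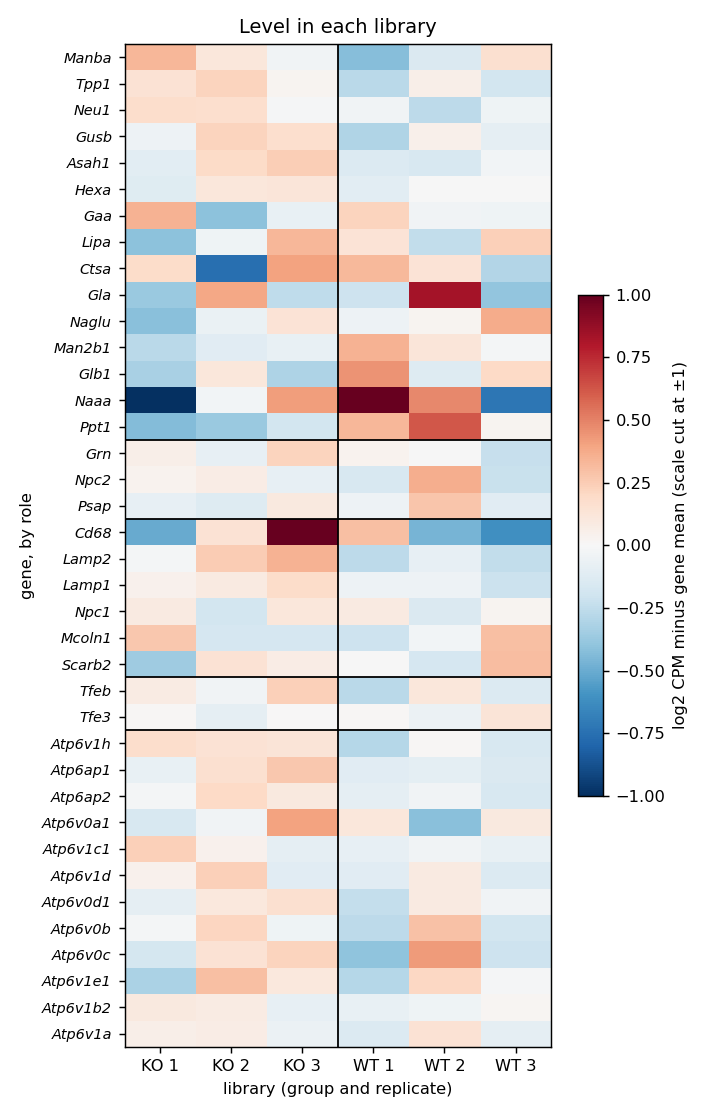
Level of each gene in each library, as log2 CPM minus the mean of the gene over the 6 libraries (colour scale cut at 1 in either direction; rows by role, KO libraries on the left). Naaa, Cd68, Gla and Ctsa carry the strongest colours, each in single libraries, whereas most V-ATPase rows stay pale.

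Psap and Lamp1 were the most abundant transcripts of the set. Psap encodes prosaposin, the precursor of the saposins that help hydrolases reach their lipid substrates. It had 2278, 2208 and 2577 CPM in KO libraries, against 2329, 2928 and 2232 CPM in WT libraries, and the groups overlapped. Per kilobase of merged exons it averaged 858 ± 71.4 CPM in KO and 910 ± 137 CPM in WT, and its log2 fold change was -0.08 ± 0.14. Grn encodes progranulin, a lysosomal glycoprotein that is also secreted. It had 334, 302 and 374 CPM in KO libraries, against 329, 319 and 273 CPM in WT libraries, with a log2 fold change of 0.13 ± 0.13. Npc2, the lumenal carrier that hands cholesterol to NPC1, averaged 916 ± 51.5 CPM in KO and 922 ± 216 CPM in WT, with a log2 fold change of -0.01 ± 0.16. WT replicate 2 had the highest level of both Psap and Npc2, and without it their log2 fold changes were 0.04 and 0.19.

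Among the membrane proteins the LAMP genes had 3 KO values above all 3 WT values, without passing the test. Lamp1 (ENSMUSG00000031447, chromosome 8, 13159161 to 13175338) encodes a main glycoprotein of the lysosomal membrane. It had 1739.6, 1801 and 1920.0 CPM in KO libraries, against 1631, 1631 and 1459 CPM in WT libraries. Its log2 fold change was 0.21 ± 0.12 with an unadjusted p of 0.0997, and 9.3% of its exon bases are shared with the opposite-strand gene Grtp1. Lamp2 (ENSMUSG00000016534, chromosome X, 38401357 to 38456454), whose product also takes part in the fusion of autophagosomes with lysosomes, had 131, 158 and 168 CPM in KO libraries, against 110.5, 125 and 111 CPM in WT libraries. KO replicate 1 lay only just above WT replicate 2. The means were 152 ± 19.4 CPM in KO and 116 ± 8.27 CPM in WT, a log2 fold change of 0.40 ± 0.14 with an unadjusted p of 0.0133 and an edgeR adjusted p of 0.834. It ranged from 0.32 without KO replicate 3 to 0.50 without KO replicate 1. The deposited value is a total per gene, so the splice forms known for Lamp2 could not be told apart.

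Cd68 encodes macrosialin, a LAMP-like glycoprotein that is abundant in macrophages. It had 17.02, 26.6 and 53.3 CPM in KO libraries, against 29.8, 17.4 and 15.7 CPM in WT libraries. The groups overlapped, and the highest values were those of KO replicate 3 and WT replicate 1. The same 2 libraries had the highest sums of monocyte and macrophage markers, 746 and 428 CPM, of which Lyz2 held 468 and 192 CPM. They had 48.8 and 52.6 CPM of Csf1r, against 9.81 to 22.7 CPM in the other 4. For Adgre1 they had 26.5 and 19.6 CPM, against 1.40 to 3.31 CPM. Among the tested markers, Cd14 was highest in WT replicate 2 (28.4 CPM) and Ly6c2 in KO replicate 1 (14.3 CPM). Ccr2 and Cx3cr1 were highest in WT replicate 3. The part of these markers in the level of Cd68 was not tested. The log2 fold change of Cd68 was 0.59 ± 0.43. Leaving out KO replicate 3 gave 0.06, and leaving out WT replicate 1 gave 0.94. The median over the 6 membrane proteins was 0.11, and it was 0.04 without KO replicate 3. Lamp2 and Lamp1 had log2 fold changes of 0.32 and 0.16 without that library.

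The 3 other membrane proteins differed by less than their SE. Npc1, which moves cholesterol out of the lysosome, had 42.2, 34.9 and 42.9 CPM in KO libraries, against 42.2, 35.8 and 40.3 CPM in WT libraries, a log2 fold change of 0.01 ± 0.16. Mcoln1, the calcium channel of the lysosomal membrane, had 81.8, 60.6 and 60.3 CPM in KO libraries, against 58.9, 66.5 and 83.6 CPM in WT libraries, a log2 fold change of -0.05 ± 0.18. One library of each group stood above the others for Mcoln1. Scarb2, which encodes LIMP-2, the carrier of glucocerebrosidase to the lysosome, averaged 100.1 ± 17.8 CPM in KO and 107 ± 18.4 CPM in WT. The summed level of the 6 genes was 2091, 2195 and 2353 CPM in KO libraries, against 1974, 1967 and 1837 CPM in WT libraries, and Lamp1 made up most of it in every library.

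The transcription factors of the programme overlapped between the groups, and neither passed the test. Tfeb had 42.7, 39.2 and 47.5 CPM in KO libraries, against 33.3, 43.6 and 36.6 CPM in WT libraries, a log2 fold change of 0.19 ± 0.17. With offsets for transcript length and GC content it was 0.31, without WT replicate 2 it was 0.29, and it was 0.11 both without KO replicate 3 and without WT replicate 1. Tfe3 had 126.4, 117.8 and 125.6 CPM in KO libraries, against 126.6, 120.3 and 137 CPM in WT libraries, a log2 fold change of -0.06 ± 0.12 (0.05 with the same offsets). Tfe3 was more abundant than Tfeb in both groups, at 13.3 and 7.61 CPM per kilobase of merged exons in KO and 13.8 and 6.67 in WT. TFEB and TFE3 are controlled largely by their place in the cell, which RNA levels do not show.

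**Figure D3:**
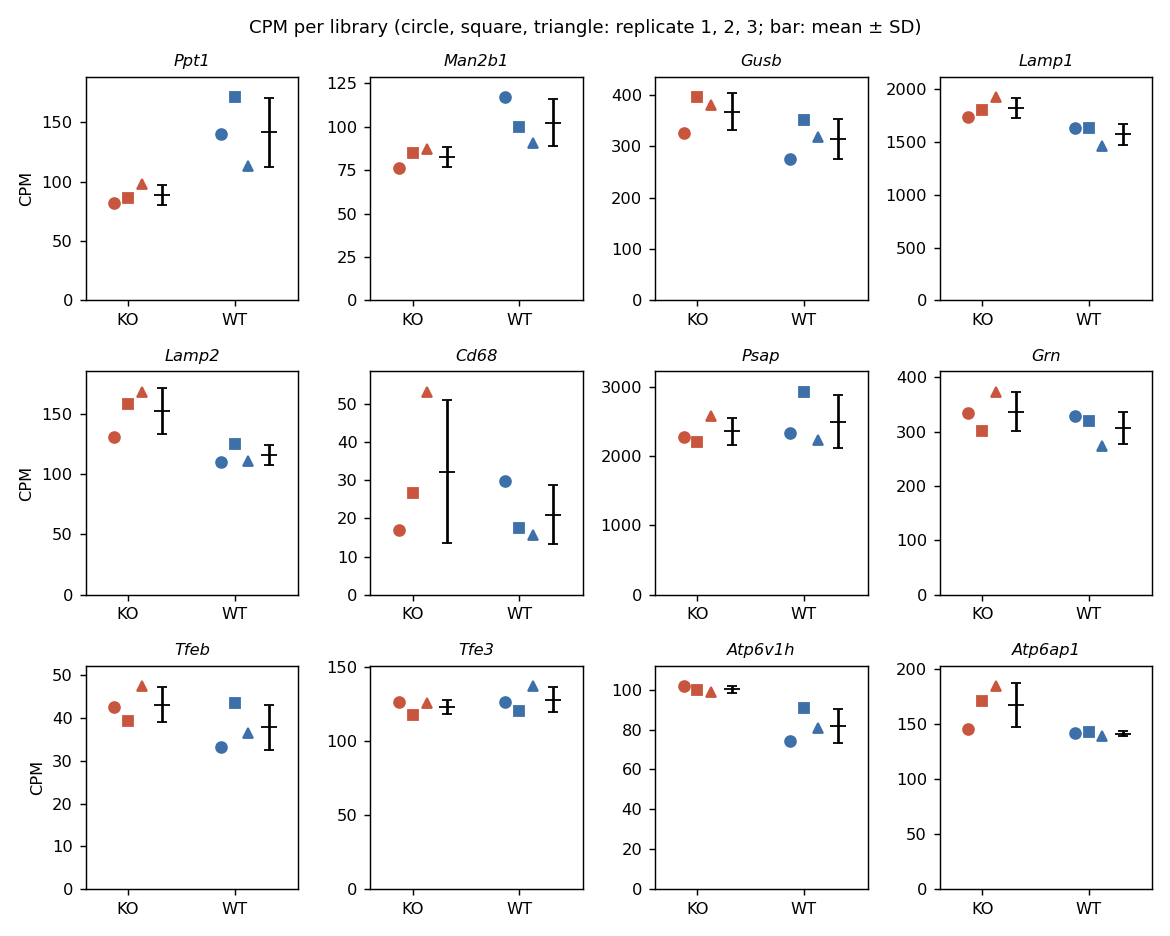
CPM per library for 12 genes (KO left, WT right; circle, square and triangle are replicates 1, 2 and 3; bar, mean ± SD, n = 3). The KO and WT points do not overlap for Ppt1, Man2b1, Lamp1, Lamp2, Atp6v1h and Atp6ap1, and Cd68 is high in KO replicate 3.

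All 12 V-ATPase genes had a positive log2 fold change, none of them past the test. The pump consists of the V0 sector, which carries protons through the membrane, and the V1 sector, which hydrolyses ATP. Log2 fold changes ran from 0.05 to 0.29 with a median of 0.12, and the median SE was 0.14. The genes summed to 2085, 2293 and 2260 CPM in KO libraries, against 1913, 2197 and 2011 CPM in WT libraries. The groups overlapped, since WT replicate 2 lay above KO replicate 1, and the ratio of the means was 1.08. The count above 0 was 12 under every alternative that kept all 6 libraries, 8 without WT replicate 1, 10 without KO replicate 2, and 11 both without KO replicate 3 and without WT replicate 2. The median was 0.06 without KO replicate 2, 0.07 without WT replicate 1 and 0.19 both without KO replicate 1 and without WT replicate 2. The genes were measured in the same 6 libraries and are not replicates of each other. Over all genes, the first of 4 equal groups by exon length, the shortest, had a median log2 fold change of 0.10 and the last, the longest, one of -0.07, and the V-ATPase median was 0.09 with offsets for length and GC content.

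The V-ATPase genes with the least overlap were a regulatory subunit and the accessory proteins. Atp6v1h (ENSMUSG00000033793, chromosome 1, 5070018 to 5162529), the V1 subunit that couples V1 to V0, had 102, 99.9 and 98.8 CPM in KO libraries, against 74.1, 91.0 and 80.8 CPM in WT libraries. The KO libraries lay within a narrow range above all WT libraries. Its log2 fold change was 0.29 ± 0.13 with an unadjusted p of 0.0467 and an edgeR adjusted p of 0.834, and it stayed between 0.22 and 0.37 over the alternatives. Atp6ap1 (chromosome X, 74297097 to 74304721), an accessory protein needed for assembly of the pump, had 145, 171 and 184 CPM in KO libraries, against 141, 143 and 138 CPM in WT libraries. The WT libraries were almost alike and KO replicate 1 lay just above them. Its log2 fold change was 0.25 ± 0.13 with an edgeR adjusted p of 0.834. Atp6ap2, the other accessory protein, also known as the prorenin receptor, averaged 160.3 ± 12.1 CPM in KO and 140.5 ± 6.29 CPM in WT, a log2 fold change of 0.19 ± 0.12.

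The remaining V1 genes overlapped between the groups. Atp6v1b2 encodes the nucleotide-binding B subunit and had the highest level per exon length of the class. It had 509, 503 and 449 CPM in KO libraries, against 451, 459.9 and 481 CPM in WT libraries, a log2 fold change of 0.07 ± 0.12. Atp6v1a, the catalytic A subunit, had a log2 fold change of 0.05 ± 0.13, Atp6v1c1 of 0.13 ± 0.14, Atp6v1d of the central shaft of 0.12 ± 0.14, and Atp6v1e1 of the outer stalk of 0.07 ± 0.18.

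Among the V0 genes, the log2 fold changes of Atp6v0c, Atp6v0b and Atp6v0a1 changed sign when certain single libraries were left out. That of Atp6v0d1 did not. Atp6v0c, the proteolipid that forms most of the proton-carrying ring, had 241, 301 and 318 CPM in KO libraries, against 206, 367 and 236 CPM in WT libraries. WT replicate 2 was thus the highest of all 6, as it was for Atp6v0b, another ring subunit, with 201 CPM against 136 to 189 CPM in the other 5. Atp6v0a1, the membrane subunit beside the ring, ran the other way, with its lowest value of 183 CPM in WT replicate 2 and its highest of 323 CPM in KO replicate 3. The log2 fold changes were 0.09 ± 0.21 for Atp6v0c, 0.09 ± 0.16 for Atp6v0b, 0.13 ± 0.18 for Atp6v0a1 and 0.12 ± 0.13 for Atp6v0d1, which links the ring to V1. Without WT replicate 2 they were 0.37, 0.28, -0.03 and 0.19.

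**Figure D4:**
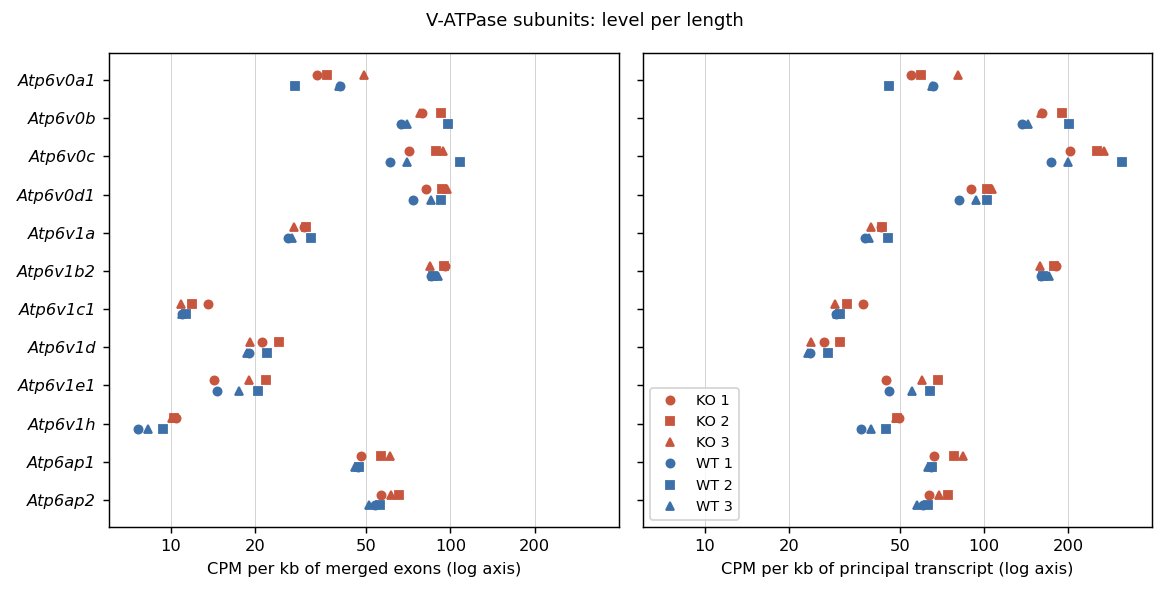
Level of each V-ATPase gene per kilobase in each library, by merged exons (left) and by the principal transcript of the annotation (right), both on a log axis, with KO above WT in each row. Atp6v0b, Atp6v0c, Atp6v0d1 and Atp6v1b2 are at the high end in both panels, and Atp6v1h moves furthest between panels.

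Levels of the subunits differed by more than the groups did. Per kilobase of merged exons, KO libraries averaged 91.8 ± 6.26 CPM for Atp6v1b2, 90.7 ± 8.06 for Atp6v0d1, 84.6 ± 11.9 for Atp6v0c and 82.9 ± 8.18 for Atp6v0b, which overlap within their SD. In WT libraries the same genes averaged 87.5 ± 2.87, 83.8 ± 9.51, 79.7 ± 25.3 and 78.2 ± 17.3. Lowest on this scale was Atp6v1h, at 10.3 ± 0.17 CPM per kilobase in KO and 8.41 ± 0.87 in WT. Merged exons join the exons of all annotated transcripts, and per kilobase of the principal transcript Atp6v1h averaged 48.9 CPM in KO and 40.0 CPM in WT, while Atp6v1d was lowest, at 27.1 CPM in KO and 25.0 CPM in WT. Atp6v0c was highest on that second scale, at 242 CPM in KO and 228 CPM in WT. Atp6v0b shares 11.8% of its exon bases with an opposite-strand gene, Gm12841, and no source used here says whether strand was used in counting.

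Other genes of the pathway, from 5 lists, had 0 calls among 103 tested genes, where 0% of all 12568 genes were called. The other V-ATPase genes had 9 of 12 tested genes above 0, against 50.6% of all genes. Their median log2 fold change was 0.23, and it was 0.05 without WT replicate 2. Some genes of this list were near the floor. Its lowest mean level was 1.46 CPM, against 65.0 CPM among the V-ATPase genes of the set, and its median SE was 0.20, against 0.14. The 3 genes of this list below 0 were Tcirg1 (-0.23 ± 0.22), Atp6v0a2 (-0.07 ± 0.13) and Dmxl1 (-0.06 ± 0.14). By smallest p, the list was led by Rogdi, a component of a V-ATPase assembly complex (0.28 ± 0.12), and Atp6v0e, a small membrane subunit (0.36 ± 0.16). Both were at an unadjusted p under 0.05, or 16.7% of the list, against 2.71% of all genes higher in KO. Their sum was 1589, 1839 and 1687 CPM in KO libraries, against 1437, 1511 and 1454 CPM in WT libraries, and Rogdi alone held most of it. Atp6v1b1, Atp6v1c2 and Atp6v1g3 were at 0 in all libraries. The TFEB family and the lysosomal arm of mTORC1 had 15 of 18 above 0 and a median of 0.14, with the smallest p for Rragd, a Rag GTPase (0.64 ± 0.20), which had 52.7, 48.5 and 60.7 CPM in KO libraries, against 27.3, 45.5 and 31.3 CPM in WT libraries. The second was Lamtor1, of the Ragulator complex (0.28 ± 0.15).

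The other lists were centred closer to 0. The list of other hydrolases had 17 of 29 above 0 and a median of 0.04. It also held genes that do not encode hydrolases, Gm2a among them. Gm2a, which encodes the activator protein for ganglioside breakdown, had 61.5, 83.6 and 80.1 CPM in KO libraries, against 102, 149 and 91.1 CPM in WT libraries, without overlap (-0.60 ± 0.20), and Acp2, an acid phosphatase, followed (0.29 ± 0.14). The other membrane proteins had 14 of 27 above 0 and a median of 0.03, with Tpcn1, an endolysosomal cation channel (-0.60 ± 0.33), and Mfsd1, a transporter (0.22 ± 0.13), at the smallest p-values. The genes that sort enzymes to the lysosome had 9 of 17 above 0 and a median of 0.02. Ap3m1 of the AP-3 adaptor (0.37 ± 0.14) and Igf2r, the large mannose 6-phosphate receptor (-0.51 ± 0.25), led them. Single libraries moved these medians: the other hydrolases were at -0.05 without WT replicate 2, the other membrane proteins at 0.15 without KO replicate 1, the sorting genes at -0.07 without KO replicate 3 and the mTORC1 list at 0.07 without KO replicate 2. The edgeR adjusted p was 0.834 or higher for every gene of the 5 lists.

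**Figure D5:**
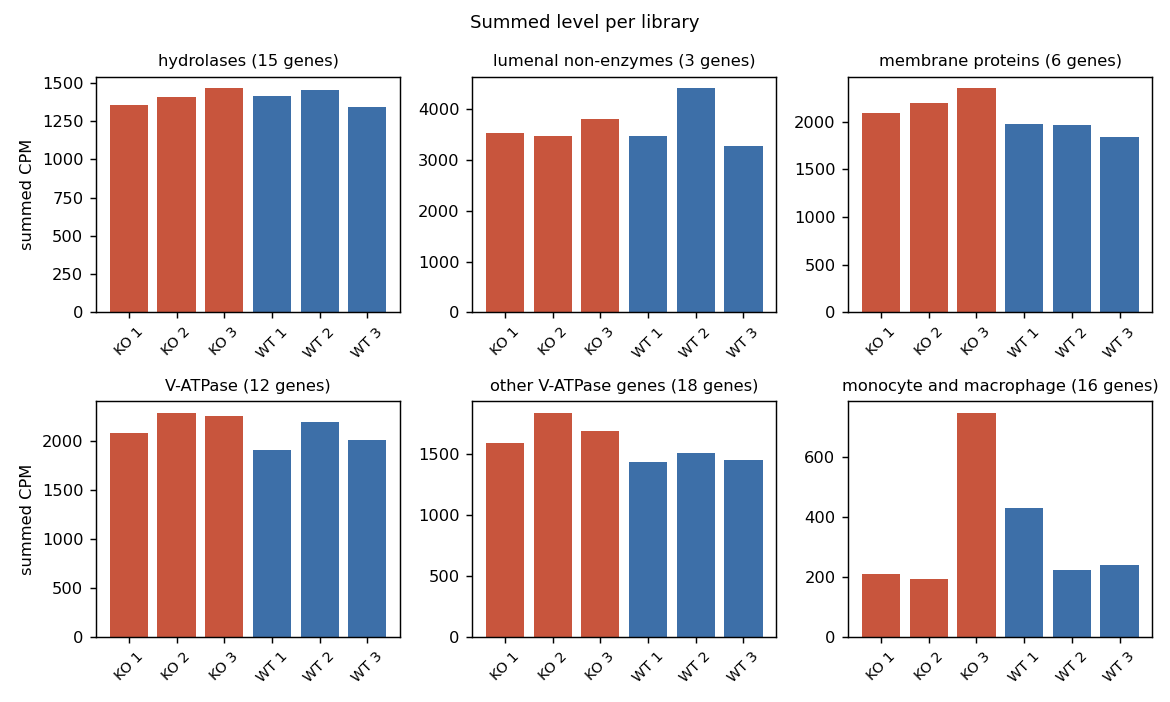
Summed CPM per library for 4 roles of the set, for the other V-ATPase genes and for 16 monocyte and macrophage markers (bars start at 0; KO libraries left of WT libraries). KO replicate 3 has the tallest bar for the markers, at 746 CPM, and WT replicate 2 the tallest for the lumenal proteins, at 4417 CPM.

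Within the groups the genes differed widely in scatter, of which 3 libraries give only a rough estimate. The coefficient of variation was 50.8% in KO and 55.3% in WT for Naaa, 58.1% and 36.7% for Cd68, and 30.2% and 49.5% for Gla. It was 1.62% in KO and 10.4% in WT for Atp6v1h, 11.8% and 1.55% for Atp6ap1, and 5.04% and 6.31% for Lamp1. KO replicate 3 had the highest value of the 6 libraries for 13 of the 38 genes, and WT replicate 2 for 7. WT replicate 1 had the lowest value for 11 genes and KO replicate 1 for 9, of which 7 were hydrolases. After centring each gene on its mean over libraries, the median log2 level of the set was -0.02, 0.10 and 0.10 in KO libraries and -0.08, -0.0041 and -0.08 in WT libraries, so that KO replicate 1 lay below WT replicate 2.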

How the data were processed

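RNA-seq was made from sorted cDC1s in 3 KO and 3 WT libraries. Per the labels' protocols, RNA was isolated using Trizol, and sequencing was paired-end with reads of 150 bases. The values deposited by the authors are raw counts, 1 per Ensembl gene and library. The submitters' processing notes name HISAT2 2.0.5, HTSeq and mm10. Strand use and the treatment of multi-mapped reads are not given there, which leaves counts of genes with shared exon bases uncertain.

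Columns were assigned through the library name in each description. GENCODE M21 supplied symbols for 32235 features, mm10 positions and lengths. After filterByExpr and TMM scaling, KO and WT were compared with edgeR 4.0.16 in R 4.3.3 (glmQLFit with robust estimation and the newer quasi-likelihood method). Benjamini-Hochberg adjustment ran over all 12568 genes, with a threshold of 0.05. The SE was the size of the log2 fold change divided by the square root of F, and the common biological coefficient of variation was 30.1%. Among the list symbols 2 had no match, and for 1 symbol shared by several features the one with the highest count was used.

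The 38 genes, the further lists and the rules were chosen with earlier results of these data known. Values in every library were given for 10 fixed genes and, in each role, for the 2 genes with the smallest p and the gene with the highest level per length. Naaa, Ctsa, Gla and Atp6v0c were added after their values were seen. Single markers of cDC1s and of monocytes and macrophages were likewise named after theirs were seen. For each further list, the 2 genes with the smallest p were named. The genes below 0 among the other V-ATPase genes were added after their values were seen. The 17 alternatives were RLE scaling, upper-quartile scaling, DESeq2 1.42.0, voom weights with limma 3.58.1, no low-count filter, at least 1 CPM in 3 libraries, estimation that was not robust, the replicate number as a block, offsets for length and GC content with and without that block, the earlier quasi-likelihood method, and each library left out. The earlier method and the principal-transcript length were added after the data were examined. The fit was tested on simulated data. Each pair of libraries differed by more than sampling noise. Correlations of log2 CPM ran from 0.928 to 0.958 within groups and from 0.931 to 0.956 between groups. By this measure libraries were not clearly closer within groups.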

Additional observations from a re-analysis of the deposited data

How the results depend on the processing

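None of the 38 genes was called under any of the 17 alternatives, and the smallest adjusted p was 0.118, for Ppt1 with DESeq2. Over all genes, the 0 higher and 0 lower calls became 2 and 1 without a filter and 4 and 6 with DESeq2. With a library left out they ranged from 0 to 3 and from 0 to 4, with both upper ends without KO replicate 1, and at an unadjusted p under 0.05 the edgeR fit to all libraries had 341 higher and 384 lower genes. Of the 38 genes, the 2 higher at an unadjusted p under 0.05 became 1 with RLE or upper-quartile scaling, with no filter, with the 1 CPM filter and with DESeq2, and 4 with the block and offsets together. They ranged from 0 (without KO replicate 3 or WT replicate 1) to 6 (without KO replicate 1). The 1 lower became 2 with RLE or upper-quartile scaling, the 1 CPM filter, DESeq2 and the earlier quasi-likelihood method, and ranged from 1 to 3 with a library left out (3 without WT replicate 3). With a library left out, the median log2 fold change ranged from 0.044 to 0.15 for the set, from -0.10 to 0.03 for the hydrolases and from 0.040 to 0.15 for the membrane proteins. The median of the transcription factors was 0.18 with the offsets and 0.18 with block and offsets, against 0.07. The cause was not tested.

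The sign turned for 16 genes, none of them called. With the offsets, log2 fold changes were 0.0020 for Gaa, -0.0083 for Hexa, 0.019 for Mcoln1, 0.017 for Npc2 and 0.047 for Tfe3. With block and offsets they were -0.0077 for Hexa, 0.026 for Mcoln1, 0.044 for Npc2 and 0.047 for Tfe3, and Npc2 was at 0.017 with limma-voom. With a library left out, log2 fold changes ranged from -0.054 to 0.24 for Atp6v0a1, -0.016 to 0.28 for Atp6v0b, -0.073 to 0.37 for Atp6v0c, -0.0027 to 0.13 for Atp6v1a and -0.091 to 0.23 for Atp6v1e1. They ranged from -0.31 to 0.20 for Ctsa, -0.29 to 0.090 for Gaa, -0.50 to 0.27 for Gla, -0.27 to 0.079 for Lipa and -0.21 to 0.11 for Mcoln1. They ranged from -0.056 to 0.094 for Npc1, -0.12 to 0.19 for Npc2, -0.16 to 0.039 for Psap and -0.20 to 0.052 for Scarb2.

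Deviations of same-numbered libraries from their group means correlated at 0.0052, 0.028 and -0.0013, and those of differently numbered libraries at -0.061 to 0.044. With 3 libraries a group, such values cannot show whether the replicate numbers pair the libraries. Not every library correlated best with its own number. With the replicate block, 942 genes had an unadjusted p under 0.05, none of the 38 genes was called, their median was 0.09 and Npc2 was at 0.014. With 3 libraries a group and a common coefficient of variation of 30.1%, a missed threshold does not show that a gene was at the same level in both groups.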
